A study of Mus musculus with 4 samples.

Results

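The genes described here encode the respiratory complexes II to V, the cytochrome c that carries electrons between complexes III and IV, and the ATP synthase that is complex V. They were chosen by symbol: Sdha to Sdhd, every symbol that begins with Uqcr, with Cox4 to Cox8 or with Atp5, and Cyc1 and Cycs. This rule took 47 of the 27189 genes listed, with 4 in complex II, 8 in complex III, 18 under complex IV, 16 under complex V and cytochrome c. Cox5b, which fits the rule, was not among the genes listed, and neither were 12 symbols looked up for subunits encoded by mitochondrial DNA. The subunits of complex I were not analysed here, and 3 symbols came in by spelling only. Cox4nb is the neighbour of Cox4i1 and encodes a membrane protein of the endoplasmic reticulum, Atp5s is a coupling factor related by name to complex V, and Cox7a2l is a relative of Cox7a2 that helps join respiratory complexes into supercomplexes.

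The libraries came from cell bodies of large motor neurons, cut by laser from the ventral horn of spinal cords of transgenic mice at 3 months of age, with 1 animal per library and 2 libraries per genotype. Every animal carried human SOD1 fused to yellow fluorescent protein (YFP) as a genomic fragment of the human gene, on a C57BL/6J x SJL/J background. The controls carried the wild-type SOD1-YFP transgene (strain 592) at a low copy number, and the mutants carried G85R SOD1-YFP (strain 737), a variant that causes inherited amyotrophic lateral sclerosis, at a far higher copy number in an insertion on chromosome 4. Genotype, strain, insertion site and copy number therefore differed together and cannot be told apart, and cells that held bright aggregates were not collected. In such bulk samples a smaller number of cells of a type and less RNA per cell cannot be told apart.

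Complex II, succinate dehydrogenase, oxidises succinate and hands the electrons to ubiquinone. Complex III moves them from ubiquinol to cytochrome c, and complex IV passes them on to oxygen, while complexes III and IV pump protons across the inner mitochondrial membrane. Complex V lets the protons flow back through its membrane sector, Fo, and uses that flow to make ATP in its head, F1. Several complex IV subunits exist as isoforms of different tissues, with one form found widely and another in heart and skeletal muscle, testis or lung, and subunit c of Fo is made from several genes that encode the same mature protein. Neurons draw most of their ATP from these complexes.

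Levels are given as RPKM, the reads of a gene scaled to the length of its model and to the mapped reads of the library, for wild-type replicates 1 and 2 and then G85R replicates 1 and 2. The libraries held between 21560318 and 25186594 reads on genes, as estimated from the deposited values with and without 1 added read, and 1 read of a typical gene was worth between 0.0195 and 0.0226 RPKM. The 9 markers of motor neurons were found in each library, from Isl1, a transcription factor, at 6.37, 5.92, 4.41 and 6.13 RPKM to the neurofilament Nefl at 4294, 5044, 3905 and 4827 RPKM. Of the 9, 8 had a log2 fold change below 0 in G85R, with a median of -0.14, where 45.3% of all genes tested lay above 0. Of the 8, 1 (Prph) had an unadjusted limma p under 0.05, against 11.0% of all genes tested, and 0 passed limma's adjusted p of 0.05. The 7 skeletal muscle markers summed to between 0.218 and 0.816 RPKM in the 4 libraries, and Myh1 among them was listed at 0 throughout. Markers of glia were highest in G85R replicate 1 for 7 of 7 astrocyte, 7 of 7 oligodendrocyte and 8 of 8 microglial genes. The astrocyte sum was 446 and 452 RPKM for wild-type and 621 and 532 for G85R, most of it from S100b, and without S100b it was 33.8, 37.1, 124 and 49.0 RPKM. The microglial sum was 15.3 and 17.2 against 38.8 and 18.6. The haemoglobin gene Hbb-b1 stood at 1.75, 2.00, 10.7 and 10.2 RPKM, which gave a log2 fold change of 2.42 (limma, adjusted p = 0.0017).

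Many of these genes have near copies elsewhere in the mouse genome, some of them annotated as pseudogenes, and the authors kept only those reads of 75 bases that matched 1 place. For each gene the share of 75-base windows touching the coding sequence that did not recur outside the gene with up to 2 mismatches was therefore counted on the mouse build NCBIM37, which the positions here refer to. That share was 100% for 22 of the 47 genes, and 25 of 47 had at least 1 copy. Among 21 assembly factors, inhibitor and heme lyase genes of the same complexes, 5 had a copy. The first 30 coding bases of 5 genes are shown with those of 1 copy each, because their levels are set beside those of genes without copies. Capitals mark the bases that differ between a gene and its copy, and a pair printed with no capitals is identical over that stretch.
Cycs, chr6:50515630-50515659, minus strand: atgggtgatgttgaaaaaggcaagaagatt
Copy of Cycs, chr19:24950243-24950272, plus strand: atgggtgatgttgaaaaaggcaagaagatt
Atp5g2, chr15:102498151-102498180, minus strand: atgtacgcctgctccaagttcgtctctacc
Copy of Atp5g2, Gm10231, chr17:5816611-5816640, minus strand: atgtacgcctgctccaagttcgtctctacc
Atp5l, chr9:44728715-44728744, minus strand: atggccaagttcatccgtaacttcgcggag
Copy of Atp5l, Gm10221, chr5:24087651-24087680, minus strand: atggccaagttcatccgtaacttcgcggag
Cox6c, chr15:35866997-35867026, minus strand: atgAgttccgGtgcgctgttgcccaaacca
Copy of Cox6c, Gm6265, chr12:57474781-57474810, minus strand: atgCgttccgAtgcgctgttgcccaaacca
Cox7b, chrX:103211170-103211199, plus strand: atgttgcccttagccaaaaacGcaCtaagc
Copy of Cox7b, Gm13771, chr2:91482051-91482080, minus strand: atgttgcccttagccaaaaacAcaTtaagc
The copies of Cycs, Atp5g2 and Atp5l had 0 differences over 318, 441 and 312 coding bases, while that of Cox6c had 7 over 231 and that of Cox7b had 9 over 243.

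Apart from the tissue isoforms, Cox4nb and Atp5s, which were low with unique windows, levels were on the whole lower among genes with few unique windows. Among the 27 genes with at least 90% unique coding windows, the 18 that are widely expressed subunits ranged from 112 to 1140.5 RPKM, averaged over the libraries, with a median of 307 RPKM. The 9 subunits between 50% and 90% ranged from 99.7 to 514 RPKM. Below 50%, 9 tested genes ranged from 1.90 to 196 RPKM with a median of 13.1 RPKM, and Uqcrb and Atp5g2 stood lower still. Over the 38 genes that remain without the tissue isoforms, Cox4nb and Atp5s, Pearson's r between the share and log2(RPKM + 0.1) was 0.82 and Spearman's rho was 0.65, given as a description over genes that share all 4 libraries. Neither the loss of reads at these genes nor its part in their levels was tested, and the mismatch setting of the aligner is not given in the sources used here. The shares under 50% depended on that setting. With no mismatch allowed, they were 76.7% for Cox6c, 72.2% for Atp5f1, 65.3% for Uqcr, 57.8% for Uqcrb, 51.0% for Cox7a2l and 49.2% for Atp5h. They stayed at 21.5% for Cox7c, 13.2% for Atp5g1, 10.9% for Atp5l and 0% for Cycs and Atp5g2.

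**Figure D1:**
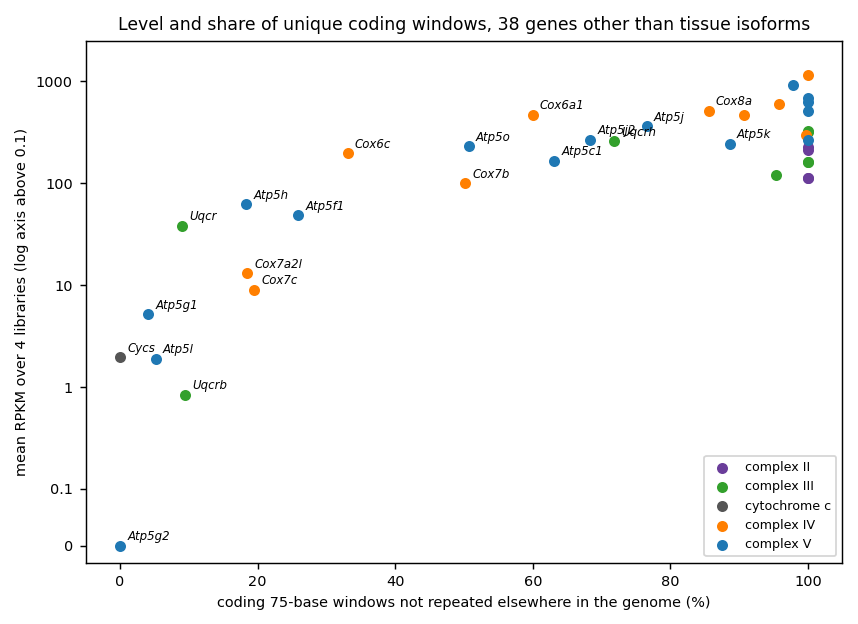
Mean RPKM over the 4 libraries (vertical, log axis above 0.1) against the percentage of coding 75-base windows found nowhere else in the genome (horizontal), with 1 point per gene coloured by complex, for 38 genes. Genes under 90% are named, and the points climb from Atp5g2 at 0 RPKM and 0% to the group near 100%, where no gene lies below 112 RPKM.

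The highest subunits of complexes IV and V were among the most abundant transcripts by their mean over the libraries. Cox4i1, a nuclear subunit that regulates complex IV, stood at 1044, 1219, 1133 and 1165 RPKM and ranked 13 among the 11530 genes tested. Atp5b, the catalytic subunit of the F1 head, stood at 948, 886, 928 and 925 RPKM and ranked 30. Atp5g3, a subunit c gene of Fo, stood at 676, 649, 688 and 709 RPKM. In the order of levels among genes with at least 90% unique coding windows, these 3 stood first, and the ranges of neighbours did not overlap from Cox4i1 down to Atp5a1. Atp5a1, the partner of Atp5b in the head, ranged from 595 to 637 RPKM and overlapped Cox6b1, which in turn overlapped Atp5d. A gap without overlap followed Cox5a, whose lowest value of 427 RPKM lay above the highest value of Uqcrc1, 371 RPKM.

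**Figure D2:**
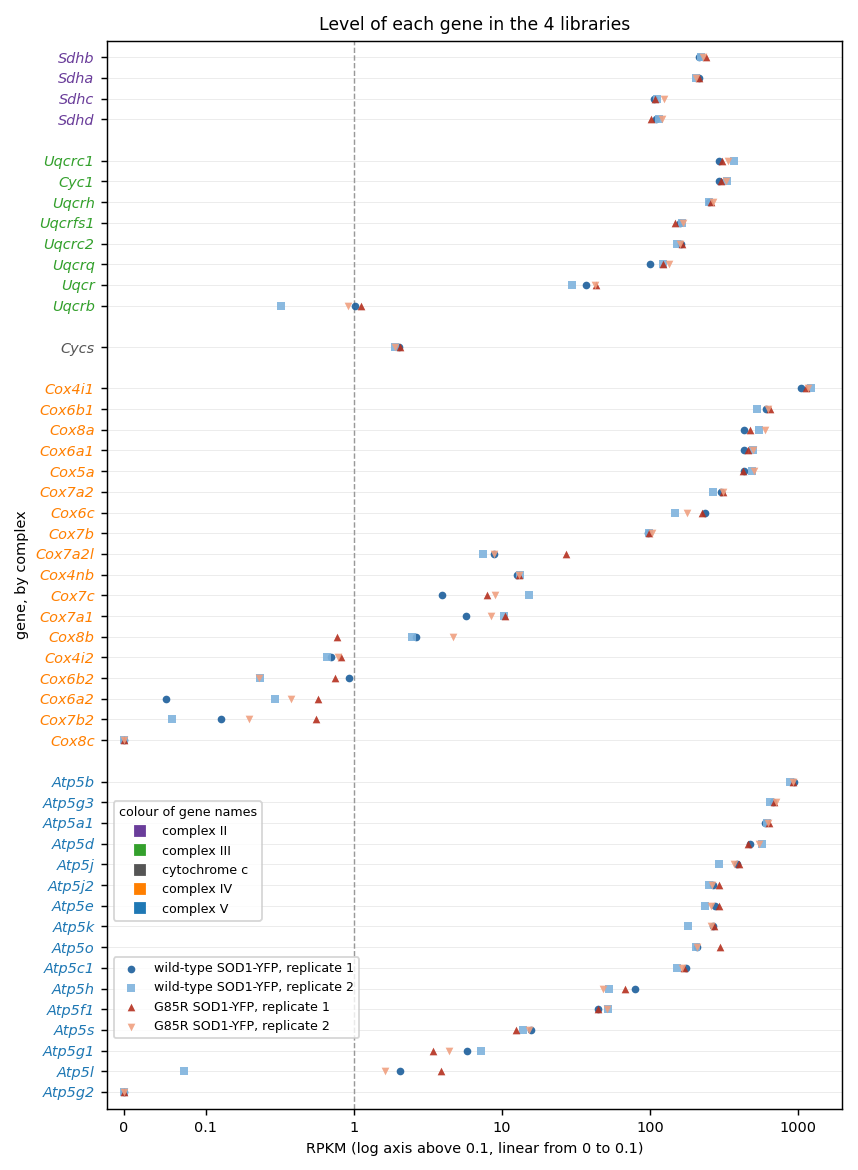
RPKM (horizontal, log axis above 0.1 and linear below) of the 47 genes, grouped by complex and ordered by mean level, with 1 symbol per library, blue for wild-type SOD1-YFP and red for G85R SOD1-YFP. The dashed line marks 1 RPKM, the mean needed for testing. Symbols of both genotypes lie on each other for most genes above 100 RPKM, and spread apart for genes such as Atp5l, Cox7c and Cox7a2l.

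Genes with a mean of at least 1 RPKM were tested for a difference between genotypes with limma on log2(RPKM + 0.1), which left 40 of the 47 genes among 11530 tested. None of the 40 passed an adjusted p of 0.05, where 74 genes or 0.642% of those tested did. An unadjusted p under 0.05 was reached by 2 of 40 genes, Uqcr and Atp5g1, against 11.0% of the genes tested. The log-linear likelihood ratio test is a Poisson model of RPKM values with 1 read added. It gave 0 of 47 genes after adjustment, against 0.228% of 27189 genes, and 6 of 47 before it, against 1.29%. These 6 were Cox6b1, Cox8a, Cox7a2l, Atp5j, Atp5k and Atp5o, each with a limma log2 fold change above 0. Neither Uqcr nor Atp5g1 was among them. Cox7a2l and Atp5o were high in G85R replicate 1 alone, and for Atp5j and Atp5k wild-type replicate 2 was the low library. In the Poisson model p depends on the RPKM level. The 27189 genes include those with a mean under 1 RPKM, so these shares do not compare genes of like level. Leaving out 1 library gave 1 call without wild-type replicate 1 (Atp5l), 1 without wild-type replicate 2 (Cox7c), 2 without G85R replicate 2 (Cox7a2l and Cox8b) and 0 without G85R replicate 1, where the lone library of a group was assumed to vary like the others. Over all genes tested, these fits called 0.867%, 0.676%, 1.63% and 0.833%, in that order. More estimates lay above 0 than below: 29 of 40 were above 0 in G85R, against 45.3% of the genes tested, and the median of their log2 fold changes was 0.05 against -0.02. Among genes with at least 90% unique coding windows 14 of 22 were above 0, with a median of 0.021. Between 50% and 90% it was 9 of 9 with a median of 0.10, and under 50% it was 6 of 9 with a median of 0.10. The count of 29 became 23 under quantile normalization and lay between 24 and 34 when any library was left out. The values of both G85R libraries lay above both wild-type values for 9 of 40 genes and below them for 1, against 17.3% and 23.9% of the genes tested. Without overlap in either direction there were thus 10 of 40, against 41.2%.

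For the 18 widely expressed subunits with at least 90% unique coding windows, the log2 fold changes lay between -0.06 and 0.23. Their 95% intervals lay within -0.37 and 0.52, so that a larger difference on this scale was outside the interval of every one of them. The wide estimates belonged to other genes. For the 9 tested genes under 50%, the estimates ran from -0.72 to 2.09 and the median absolute difference between wild-type replicates was 0.32 on the log2 scale, against 0.13 for genes with at least 90% unique windows and 0.16 for all genes tested. Between the G85R replicates these medians were 0.33, 0.13 and 0.15.

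**Figure D3:**
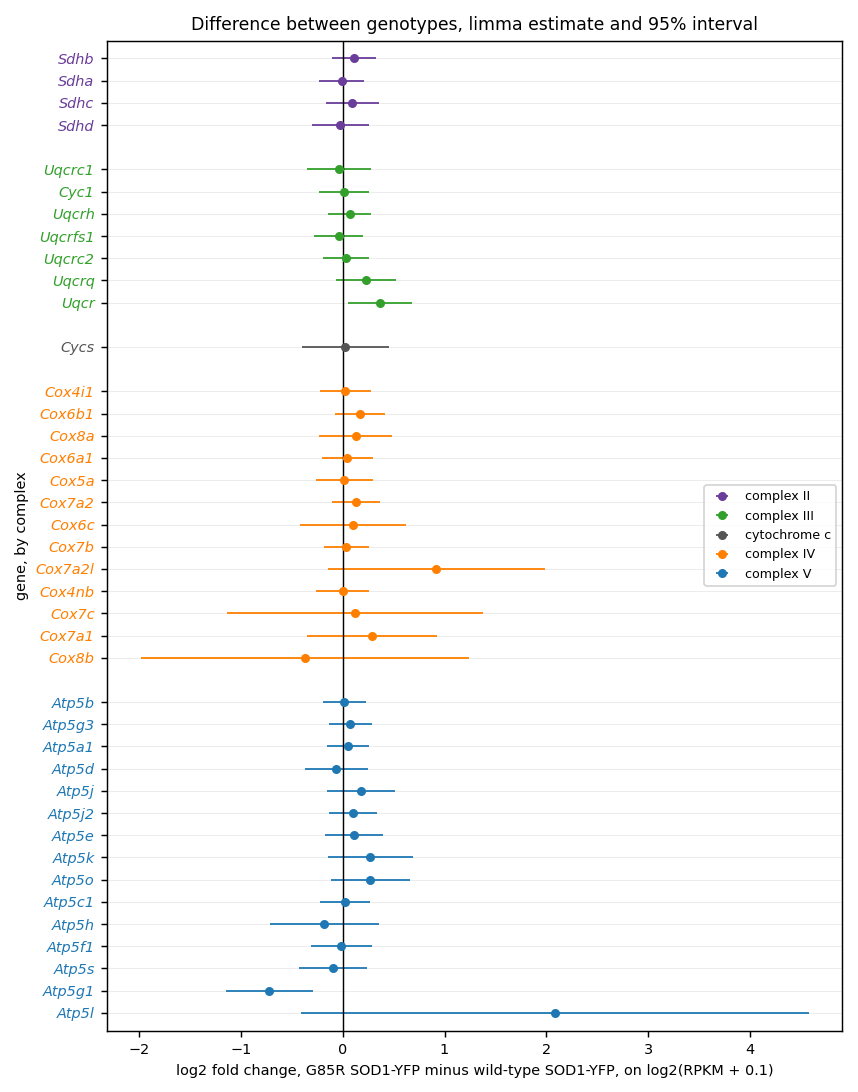
Log2 fold change of G85R SOD1-YFP minus wild-type SOD1-YFP on log2(RPKM + 0.1) (horizontal) for the 40 genes tested, by complex and in order of mean level, with the limma estimate as a point and its 95% interval as a line. The lines of Uqcr and Atp5g1 miss 0 before adjustment for the number of genes, and the widest line is that of Atp5l, from -0.41 to 4.58.

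In complex II, the catalytic subunits and the membrane anchors formed separate pairs by level. Sdha, the flavoprotein that oxidises succinate, stood at 216, 207, 215 and 204 RPKM. Sdhb, the iron-sulphur subunit beside it, stood at 214, 222, 241 and 229.9 RPKM. Sdhc and Sdhd anchor these catalytic subunits in the membrane, and Sdhc stood at 106, 111, 108 and 125 RPKM while Sdhd stood at 109.9, 116, 102 and 121 RPKM. The catalytic subunits thus lay above both anchors in every library without overlap, while Sdha and Sdhb overlapped each other, as did Sdhc and Sdhd. All 4 genes had 100% unique coding windows.

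Between genotypes, Sdhb was the gene of complex II whose G85R values both lay above the wild-type values, by a log2 fold change of 0.11 with a 95% interval from -0.11 to 0.33 (adjusted p = 0.75). Sdha, Sdhc and Sdhd overlapped between genotypes, with log2 fold changes of -0.01, 0.09 and -0.02. Sdhb and Uqcrh of complex III are located on chromosome 4, which also holds the G85R transgene insertion. So are Atpaf1 and Atpif1, an assembly factor and the inhibitor of complex V. The distance of these genes from the insertion is not given in the sources used here, and its part in their values was not tested.

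In complex III, cytochrome c1 and the first core protein led. Uqcrc1, a core protein, stood at 291, 371, 306 and 337 RPKM, and Cyc1, which donates electrons to cytochrome c, stood at 294, 334, 303 and 329 RPKM. Both genes were higher in replicate 2 than in replicate 1 of either genotype, and the genotypes overlapped. Uqcrc2, the other core protein, and Uqcrfs1, the Rieske iron-sulphur protein, had means of 160.2 and 160.3 RPKM, below Uqcrc1 in each library. Uqcrh, the hinge protein that contacts cytochrome c1, stood at 252, 249.6, 258 and 267 RPKM, and the small subunit Uqcrq stood at 100.1, 122, 123 and 136 RPKM. For both, the G85R values lay above the wild-type values, though wild-type replicate 2 and G85R replicate 1 of Uqcrq lay next to each other.

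Uqcr, a small accessory subunit also named Uqcr11, stood at 37.2, 29.7, 43.2 and 42.4 RPKM. The groups did not overlap, and the log2 fold change was 0.37 with an SE of 0.13 and a 95% interval from 0.05 to 0.68. The limma fit over all genes gave an unadjusted p of 0.028 and an adjusted p of 0.38. Of its coding windows, 8.98% were unique. Uqcrb, which binds ubiquinone at the membrane, was under the filter at 1.02, 0.320, 1.12 and 0.911 RPKM, equal to 15, 5, 15 and 13 reads, with 9.43% of its coding windows unique and 5 copies. Uqcr10, listed as 1110020P15Rik and outside the symbols chosen, stood at 259.8, 255, 226 and 249.6 RPKM.

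Cycs, the somatic cytochrome c, was listed at 2.00, 1.88, 2.06 and 1.90 RPKM. No coding window of Cycs was unique, with 13 copies in the genome, whereas 58.8% of the windows over the whole GENCODE transcript of 3123 bases were. Its 4 values lay close together and overlapped between genotypes, with a log2 fold change of 0.03 and a 95% interval from -0.40 to 0.46. The testis form Cyct had 1 library above 0, at 0.0494 RPKM.

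In complex IV, the widely expressed nuclear subunits spread over a wide range. After Cox4i1, Cox6b1, which links the partners of the dimer on the side of cytochrome c, stood at 609, 528, 649 and 629 RPKM. Cox6a1 stood at 429, 494, 458 and 494 RPKM, Cox5a, a matrix-side subunit, at 433, 487, 427 and 506 RPKM, and the small membrane subunit Cox8a at 435, 548, 475 and 597 RPKM. Cox8a was higher in replicate 2 than in replicate 1 of each genotype, so that its genotypes interleaved. Cox7a2 stood at 303, 269, 311 and 313 RPKM, and Cox7b at 97.6, 99.3, 98.4 and 104 RPKM. The G85R values of Cox6b1 and Cox7a2 lay above the wild-type values, with log2 fold changes of 0.17 and 0.13, intervals from -0.07 to 0.42 and from -0.11 to 0.36, and adjusted p of 0.62 and 0.72.

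Cox6c, a small subunit with 33.1% unique coding windows, stood at 235, 147, 224 and 178 RPKM, and both wild-type values enclosed both G85R values. Cox7c, with 19.5% unique coding windows and 7 copies, was listed at 3.96, 15.2, 7.92 and 9.03 RPKM. The GENCODE transcript used for Cox7c has a coding part of only 75 bases, and 54.0% of the windows over the whole transcript were unique. Wild-type replicate 1 minus replicate 2 was -1.91 on the log2 scale, the widest difference of the 47 genes within the wild-type group apart from that of Atp5l, 3.64. The genotype estimate for Cox7c was 0.12 with a 95% interval from -1.14 to 1.37. Without wild-type replicate 2 it was 1.08 (adjusted p = 0.042), and without wild-type replicate 1 it was -0.84.

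Of the 7 forms of complex IV subunits known from other tissues, 5 were below the filter of 1 RPKM. Cox4i2, the form known from lung, stood at 0.697, 0.656, 0.824 and 0.776 RPKM. Its share of the summed Cox4i level was between 0.0538% and 0.0727% across the libraries. Cox6a2, the form of heart and skeletal muscle, stood at 0.0519, 0.293, 0.568 and 0.375 RPKM, which were 1, 6, 10 and 7 reads, and its share of Cox6a did not pass 0.124%. The testis forms Cox6b2 and Cox7b2 reached at most 0.153% and 0.558% of their families, on 13.7 and 8 reads.

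Cox7a1 and Cox8b, both heart and muscle forms, were the only isoforms of this kind over the filter. Cox7a1 stood at 5.70, 10.4, 10.4 and 8.48 RPKM against 303, 269, 311 and 313 RPKM for Cox7a2. Its share of the Cox7a pair was 2.78% ± 1.32 (SD, n = 2) in wild-type and 2.94% ± 0.430 (SD, n = 2) in G85R. Cox8b stood at 2.62, 2.46, 0.771 and 4.67 RPKM, equal to 26, 26, 7 and 45 reads, so that the G85R values enclosed the wild-type values. Its log2 fold change of -0.37 became -1.60 without G85R replicate 2 (adjusted p = 0.010) and 0.85 without G85R replicate 1. Cox8c, a testis form, was listed at 0 in all 4 libraries, where 3 reads would have given between 0.203 and 0.236 RPKM. All of these isoforms had 100% unique coding windows, and the muscle markers Ckm and Mylpf stood no higher than 0.0822 and 0.634 RPKM.

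The shares of 7 minor isoforms were compared between genotypes with an exact two-sided permutation test over the 4 libraries, which cannot go below p = 0.333. That lowest value was reached for Cox6a2 in Cox6a, Cox7b2 in Cox7b and Atp5g1 in Atp5g, whose groups did not overlap, and became 0.778 after Benjamini-Hochberg adjustment over the 7 exact tests. In the same exact tests the shares of Cox4i2 and Cox6b2 gave p = 0.667, and those of Cox7a1 and Cox8b gave p = 1.

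**Figure D4:**
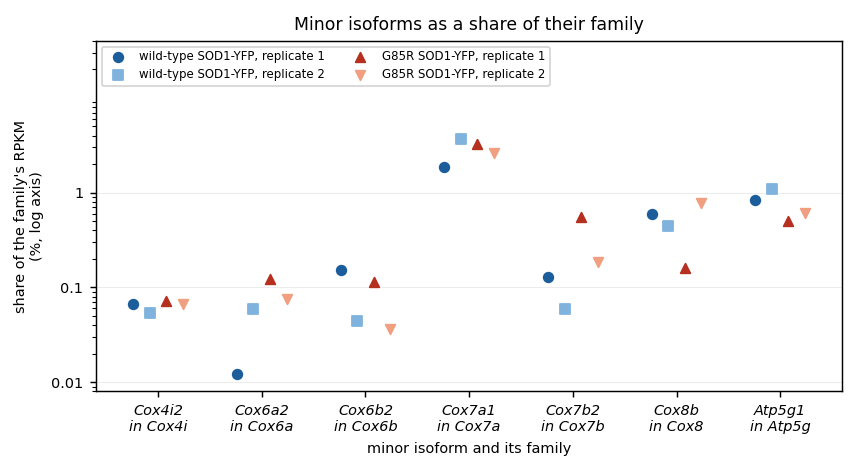
Share of each minor isoform in the summed RPKM of its family (vertical, percent on a log axis), with 1 symbol per library, blue for wild-type SOD1-YFP and red for G85R SOD1-YFP. Cox7a1 lies highest, between 1.84% and 3.71%, and the lowest point is Cox6a2 in wild-type replicate 1, at 0.0121% on 1 read.

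Cox7a2l and Atp5o stood apart through 1 library. Cox7a2l was listed at 8.90, 7.44, 27.0 and 8.87 RPKM, so that G85R replicate 1 was high and G85R replicate 2 lay between the wild-type libraries. Its log2 fold change of 0.92 had a 95% interval from -0.14 to 1.98 (adjusted p = 0.52), without G85R replicate 1 it was 0.12, and without G85R replicate 2 it was 1.72 (adjusted p = 0.00055). Of its coding windows, 18.5% were unique. Atp5o, the subunit that joins the F1 head to the peripheral stalk, stood at 208, 205, 298 and 208 RPKM. Its log2 fold change was 0.27, with a 95% interval from -0.12 to 0.66, and without G85R replicate 1 it was 0.01. G85R replicate 1 was also the library with the most astrocyte and microglial marker RNA, with Gfap at 11.5, 17.1, 91.9 and 28.4 RPKM and C1qa at 3.29, 3.24, 11.0 and 4.14 RPKM. The part of these cells in either gene's value was not tested. Over all 40 genes tested, this library held the highest value of 14, against 27.3% of the genes tested, and G85R replicate 2 that of 12, against 17.4%.

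**Figure D5:**
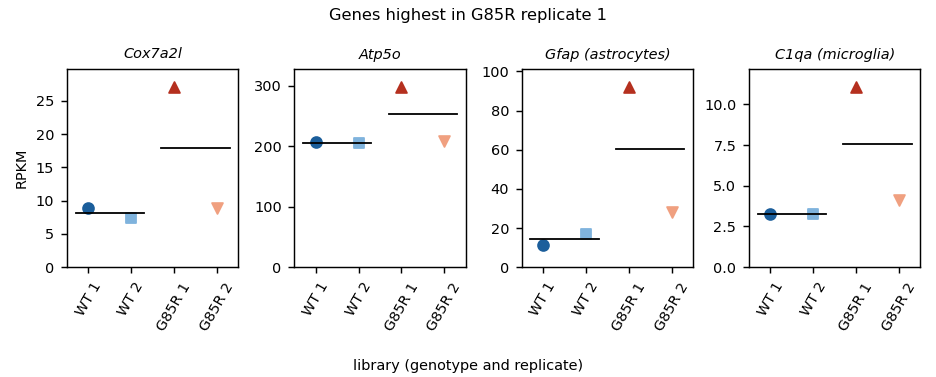
RPKM (vertical, from 0) of Cox7a2l, Atp5o, the astrocyte gene Gfap and the microglial gene C1qa in the 4 libraries (WT, wild-type SOD1-YFP), with lines at the group means. G85R replicate 1 is the highest library in every panel, and G85R replicate 2 lies near the wild-type libraries for Cox7a2l and Atp5o.

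In complex V, the subunits of the F1 head differed in level. Beside Atp5b, Atp5a1, the alpha subunit, stood at 595, 622, 637 and 624 RPKM, below it in every library. Atp5d, a subunit of the central stalk, stood at 479, 575, 459.8 and 549 RPKM, and Atp5e beside it stood at 275, 235, 294 and 257 RPKM. Atp5c1, the rotating gamma subunit, stood at 175, 153, 169 and 164 RPKM, with 63.1% unique coding windows. The genotypes overlapped for these genes except Atp5a1, whose log2 fold change was 0.05 with a 95% interval from -0.16 to 0.26.

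The peripheral stalk and the membrane sector held both high and low genes. Atp5j, a stalk subunit, stood at 388, 295, 397 and 369 RPKM, Atp5j2 of the membrane sector at 266, 249.9, 291 and 263 RPKM, and Atp5k, which takes part in dimers of the enzyme, at 268, 181, 273 and 258 RPKM. For Atp5j and Atp5k, wild-type replicate 2 was the low library and the other 3 lay together. Without that library the log2 fold change of Atp5k was -0.01, against 0.27 with it. Atp5f1 and Atp5h, stalk subunits with 25.9% and 18.3% unique coding windows, stood at 44.7, 52.5, 44.9 and 51.3 RPKM and at 79.7, 53.1, 67.8 and 48.4 RPKM. Atp5h was higher in replicate 1 than in replicate 2 of each genotype, with a log2 fold change of -0.18 and overlapping groups. Atp5l, with 5.18% unique coding windows and 18 copies, was listed at 2.06, 0.0738, 3.85 and 1.62 RPKM, and its estimate of 2.09 had a 95% interval from -0.41 to 4.58 (adjusted p = 0.54). The value in wild-type replicate 2 corresponded to less than 1 read, and without wild-type replicate 1 the estimate was 3.91 (adjusted p = 0.013).

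Subunit c of Fo forms the ring that turns as protons pass, and its genes were listed at very different levels. Both G85R values of Atp5g3 lay above both wild-type values, by a log2 fold change of 0.08 with a 95% interval from -0.13 to 0.28. Atp5g2 was listed at 0 in all 4 libraries, and none of its coding windows was unique, with 6 copies in the genome. With no unique window, a value of 0 sets no limit on its level. Atp5g1 stood at 5.77, 7.23, 3.44 and 4.36 RPKM, equal to 793, 1056, 432 and 581 reads.

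Atp5g1 had the lowest p of the genes described here. The groups did not overlap, the log2 fold change was -0.72 with an SE of 0.18 and a 95% interval from -1.15 to -0.30, and the limma fit gave an unadjusted p of 0.0052 and an adjusted p of 0.19. Only 4.10% of its coding windows were unique, with 5 copies, whereas 71.0% of the windows over the whole GENCODE transcript of 4715 bases were, so that most unique windows lay outside the coding sequence. Reads on the noncoding stretches and on the coding sequence were not separated in the deposited values. Its share of the RPKM listed for the subunit c genes, which cannot count what Atp5g2 may hold, was 0.974% ± 0.182 (SD, n = 2) in wild-type and 0.555% ± 0.0800 (SD, n = 2) in G85R. This share depends on the length of the gene models, estimated at 4707 bases for Atp5g1 and 680 for Atp5g3. In wild-type replicate 1, Atp5g1 held 793 reads and Atp5g3 13420.

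Of 36 symbols of assembly factors, inhibitor and heme lyase looked up, 21 were found and tested. Some of the 36 are older and newer names of the same gene. Among the 21, 9 were above 0 in G85R and 12 below, where 45.3% of all genes tested were above 0. The median of the log2 fold changes was -0.05, and 0 passed limma's adjusted p of 0.05. Before adjustment 3 of the 21 had p under 0.05, against 11.0% of all genes tested, and their groups did not overlap. Cox17, the chaperone that brings copper to complex IV, stood at 86.1, 92.3, 117 and 108 RPKM, a log2 fold change of 0.33 (adjusted p = 0.29). Tmem70, an assembly factor of complex V, stood at 23.3, 21.5, 27.6 and 28.4 RPKM, a log2 fold change of 0.32 (adjusted p = 0.34). Lyrm7, which helps insert the Rieske protein into complex III, stood at 2.01, 1.85, 1.25 and 0.964 RPKM, a log2 fold change of -0.76 (adjusted p = 0.27). Atpif1, the inhibitor that stops complex V from splitting ATP, stood at 235, 227, 267 and 262 RPKM, with no overlap between groups and an adjusted p of 0.49.

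By complex, 4 of 4 tested assembly factors of complex III lay below 0, with a median of -0.15, while for complex IV 6 of 11 lay above 0 and for complex V 3 of 4. Of all genes tested, 45.3% lay above 0. The 1 factor of complex II, Acn9, had a log2 fold change of -0.10, and Hccs, which attaches heme to cytochrome c, had -0.05. Of 13 regulators of mitochondrial gene expression, 10 were tested, with 3 above 0 and 7 below and a median of -0.04. None of these had a limma p under 0.05 before adjustment, against 11.0% of all genes tested. Ppargc1a, the coactivator of mitochondrial biogenesis, stood at 3.01, 3.84, 4.28 and 3.14 RPKM, and the nuclear receptor Esrra that it works with at 51.3, 60.6, 56.4 and 65.7 RPKM. Nrf1, a factor that binds promoters of respiratory genes, stood at 2.87, 3.25, 3.23 and 2.71 RPKM, and Tfam, which packages mitochondrial DNA, at 14.2, 12.8, 13.4 and 12.8 RPKM. Ndufa4, a subunit later assigned to complex IV and outside the symbols chosen, stood at 761, 690.4, 787 and 851 RPKM.

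The promoters of the genes were compared by letters alone, over windows of 300 bases, 250 before and 50 after each start, from RefSeq on the build GRCm38.p6. Of the 47 genes 35 were matched to an entry and 32 of those were among the genes tested. The letters of the NRF-1 site, each motif being read on both strands, were in 9 of these 32 genes or 28.1%, against 12.2% of 8641 tested genes with an entry. The letters CCGGAAG, bound by ETS factors such as GABP, were in 37.5% against 20.4%, and GGGCGG, the GC box of SP1, in 37.5% against 71.2%. ATGGCG of YY1 was in 8 of the 32 genes against 18.7%, TATAAA in 6.25% against 8.25%, TGACGTCA of the cAMP element in 6.25% against 3.80%, and TGCGCA, which can overlap the NRF-1 site, in 18.8% against 16.9%. No test was made of these shares, and a match is not a bound site. The NRF-1 letters are shown in capitals for 1 gene of complex II, 1 of complex III, 1 of complex IV and 2 of complex V, with 10 bases on each side.
Sdhd, chr9:50603909-50603938, minus strand: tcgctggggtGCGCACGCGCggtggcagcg
Uqcrc1, chr9:108936643-108936672, plus strand: cttccttacaGCGCTTGCGCctcagactcc
Cox6a1, chr5:115349101-115349130, minus strand: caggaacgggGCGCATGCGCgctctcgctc
Atp5g3, chr2:73911295-73911324, minus strand: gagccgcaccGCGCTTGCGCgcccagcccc
Atp5c1, chr2:10080430-10080459, minus strand: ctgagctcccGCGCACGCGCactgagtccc
Counted from the start of the transcript, the matches began at -79 in Sdhd, at -162 in Cox6a1, at -17 in Atp5c1, at 12 in Atp5g3 and at 5 in Uqcrc1.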

How the data were processed

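Polyadenylated RNA of laser-captured motor neuron cell bodies had been sequenced by the authors as single-end reads of 75 bases, aligned with Bowtie 0.12.3 (named in the submitters' processing notes) to the mouse genome mm9 and a splice-junction set with only unique matches kept, and summarised per gene. The deposited values are RPKM, and RPKM after 1 read was added to each gene, 1 file per library. The difference of both columns gave the RPKM of 1 read and so the reads per gene. No filter or scaling was applied by the authors beyond RPKM as far as the sources used here state, and the mismatch setting is not given in them.

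The genes, lists and motifs were chosen with earlier results of these data known. Genes with a mean of at least 1 RPKM over the 4 libraries were fitted together with limma 3.58.1 (R 4.3.3; lmFit, eBayes with trend) on log2(RPKM + 0.1), without a block, with Benjamini-Hochberg adjustment over 11530 genes. Fold changes on this scale understate those of low genes. The alternatives were pseudocounts, filters, scalings, a replicate block, other variance settings, each library left out, and a Poisson log-linear likelihood ratio test on the rounded RPKM with 1 read added, the kind of test the study used. Values in each library are given for complex II, Cyc1, Cycs, all isoform families, the extremes of each complex and all genes with an unadjusted p under 0.05, and for further genes chosen after their values were seen. Isoform shares are percentages of summed RPKM. With 2 animals a group, p-values rest on little replication, and intervals from counts cover counting error only.

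Unique windows were counted for the GENCODE transcript nearest in length to the authors' gene model, by a search for shared runs of 25 bases on NCBIM37, the assembly called mm9, with up to 2 mismatches over 75 bases. A match within 10000 bases of another was counted as the same copy. Both the search and the fit were tested on simulated data. Python 3.11.15 with numpy 2.4.6, pandas 2.3.3, scipy 1.17.1, numba 0.67.0 and matplotlib 3.10.9 was used. Promoter windows came from RefSeq. Sdhc, Uqcrq, Cox8c, Uqcrb, Cox6c, Cyc1, Atp5a1, Cox4i2, Uqcrc2, Cox6a2, Cox4nb and Cox4i1 had no entry.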

Additional observations from a re-analysis of the deposited data

How the results depend on the processing

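The count of 0 genes of complexes II to V past an adjusted p of 0.05 held under both other pseudocounts, both other filters, median-ratio scaling, quantile normalization, eBayes without trend, robust eBayes and the log-linear test, and lay between 0 and 2 when 1 library was left out. Equal replicate numbers are not said to share an animal, litter or day. Deviations of same-numbered libraries correlated with r = 0.22 over all genes tested, 0.39 over the 40 genes described here and -0.16 over the 22 of them with at least 90% unique coding windows. With the replicate number as a block, 3 of the 40 genes were called (Atp5g1 at an adjusted p of 0.013, Cox7a2l at 0.049 and Atp5l at 0.022), 7 had an unadjusted p under 0.05, and 527 of 11530 genes were called, or 4.57%. The block left all log2 fold changes and isoform shares as they were. The cause of these shifts in counts was not tested.

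Over all genes tested, 74 calls became 17 with a minimum of 5 RPKM, 112 with no filter, 39 under quantile normalization and 49 without trend, and between 78 and 188 when a library was left out. The count of 2 unadjusted calls became 1 with no filter and 1 without trend. Under the log-linear test the count was 6, and these 6 genes included neither Uqcr nor Atp5g1. The median log2 fold change of 0.05 became 0.072 with median-ratio scaling, 0.023 under quantile normalization and 0.021 for genes with at least 90% unique coding windows, an alternative chosen after the data were seen, and lay between 0.043 and 0.074 without any 1 library. That of complex III became -0.0044 under quantile normalization and lay between 0.042 and 0.10 without 1 library, that of complex IV between -0.041 and 0.13, and that of complex V between -0.0030 and 0.11. The Atp5g2 share differed by 0.00034 percentage points when 1 read was added. The log2 fold changes of 4 of the 40 genes changed sign with median-ratio scaling, to 0.011 for Sdha, 0.00030 for Sdhd, 0.021 for Cox4nb and 0.0082 for Atp5f1. Under quantile normalization 8 changed sign, to -0.025 for Cyc1, -0.0044 for Uqcrc2, -0.0036 for Cox4i1, -0.0027 for Cox6a1, -0.050 for Cox5a, 0.026 for Cox4nb, -0.037 for Atp5b and -0.0077 for Atp5c1. Leaving out 1 library gave ranges that crossed 0 for Sdha (-0.048 to 0.026), Sdhc (-0.013 to 0.20), Sdhd (-0.15 to 0.11), Cyc1 (-0.079 to 0.10), Cycs (-0.028 to 0.079), Uqcrc1 (-0.21 to 0.14), Uqcrc2 (-0.012 to 0.080), Uqcrfs1 (-0.13 to 0.048), Cox4i1 (-0.085 to 0.14), Cox4nb (-0.038 to 0.035), Cox5a (-0.11 to 0.14), Cox6a1 (-0.055 to 0.15), Cox6c (-0.24 to 0.44), Cox7a1 (-0.14 to 0.71), Cox7b (-0.0013 to 0.072), Cox7c (-0.84 to 1.08), Cox8a (-0.041 to 0.29), Cox8b (-1.60 to 0.85), Atp5b (-0.033 to 0.065), Atp5c1 (-0.074 to 0.12), Atp5d (-0.19 to 0.070), Atp5e (-0.0030 to 0.22), Atp5f1 (-0.13 to 0.10), Atp5h (-0.48 to 0.11), Atp5j (-0.018 to 0.38), Atp5k (-0.012 to 0.55) and Atp5s (-0.24 to 0.049). Atp5g1 stayed between -0.89 and -0.56 and Uqcr between 0.20 and 0.53. Each gene had 1 entry, so that the sum over entries gave no other value, and the log-linear test gives no log2 fold change on this scale. Depth limits the genes of a few reads, Cox6a2, Cox7b2, Cox6b2 and Atp5l.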

Other observations

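Of the 40 genes tested, 31 had the same sign of replicate 1 minus replicate 2 in wild-type and in G85R, against 59.5% of the 11530 genes tested. Among the 31, Atp5d, Cox8a, Cox5a and Uqcrc1 were lower in replicate 1 of both genotypes, and Cox6c, Atp5h, Atp5e and Atp5k were higher. Pearson's r across the 40 genes between that difference and the GC content of the transcript was -0.11 in wild-type and -0.15 in G85R, and across the 22 genes with at least 90% unique coding windows it was -0.43 and -0.14. These values are across genes of 4 shared libraries.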
